A study of Mus musculus with 20 samples.

Results

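Collagen genes were followed in the distal colon (DC) of mice fed the Total Western Diet (TWD), a rodent diet with the fat, sugar and micronutrient content of a typical American one, with or without resistant potato starch (RPS), a starch that largely escapes digestion in the small intestine. A gene was taken as a collagen gene when its identifier matched a protein-coding symbol made of Col, a number, a and a number in the GENCODE annotation of the mouse genome build GRCm39. The count table held 43 such genes among 26619 gene identifiers, and 40 of them had at least 10 counts in at least 5 of the 20 libraries. All 40 also passed the filter on low counts that left 17893 genes for testing. The 3 genes left out were Col9a1 and Col19a1, which code for fibril-associated collagens, and Col10a1, a collagen of growing cartilage. Of the 40, 36 had at least 10 counts in every library, and Col6a6, Col17a1, Col22a1 and Col26a1 did in 7, 18, 14 and 10 of 20 libraries. No gene was kept through one diet alone, but the 7 libraries of Col6a6 all came from RPS-fed mice.

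C57BL/6 mice received the TWD for 6 weeks after weaning and then the TWD with 0, 2, 5 or 10% RPS for 3 weeks (n = 5 mice per diet). A piece of DC taken 0.5 cm from the anal end gave 1 stranded, polyadenylated RNA library per mouse. All groups therefore shared the TWD, and the 0% RPS mice were the control for the starch alone. The piece was a whole tissue, so that fewer cells of a type and less RNA per cell could not be told apart, and p-values measured the spread between mice.

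Collagens are proteins of 3 chains wound into a triple helix. Fibrillar collagens form the rope-like fibers of connective tissue, and fibril-associated collagens (FACIT) sit on their surface. Network collagens build the sheets of basement membranes, beaded-filament collagens link cells to the matrix around them, and anchoring fibrils tie epithelium to the tissue below. Membrane-spanning collagens stay in the cell surface, whereas multiplexins are basement membrane collagens that carry sugar chains. In the colon wall the fibers of the submucosa bear the mechanical load, and the basement membrane lies under the epithelium and around muscle cells, nerves and vessels.

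The promoters of the most abundant fibrillar genes per base of transcript, Col3a1 and Col1a2, and the shared start of the Col4a1 and Col4a2 genes are shown because these genes were the most abundant of their classes per base. Sequences are from RefSeq on build GRCm38.p6, not the build of the counts, and 32 of the 40 collagen genes had a promoter window in that table (34 windows, since a gene can have more than 1). Each promoter is the 250 bases before the RefSeq start, plus strand, at chr1:45311288-45311537 for Col3a1 and chr6:4505368-4505617 for Col1a2. Capitals mark the TATA box letters TATAAA, the CCAAT box letters CCAAT and the GC box letters GGGCGG on either strand, which do not overlap one another here.
Col3a1: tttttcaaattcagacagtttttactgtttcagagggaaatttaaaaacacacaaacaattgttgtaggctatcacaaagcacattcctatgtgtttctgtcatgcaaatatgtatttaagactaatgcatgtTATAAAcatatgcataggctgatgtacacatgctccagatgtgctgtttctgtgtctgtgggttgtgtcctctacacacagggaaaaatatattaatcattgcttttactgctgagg
Col1a2: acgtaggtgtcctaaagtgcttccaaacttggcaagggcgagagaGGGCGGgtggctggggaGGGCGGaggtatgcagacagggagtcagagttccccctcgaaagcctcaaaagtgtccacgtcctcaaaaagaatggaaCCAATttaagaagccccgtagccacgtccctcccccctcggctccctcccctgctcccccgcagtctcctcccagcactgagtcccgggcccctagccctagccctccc
Col4a1/Col4a2: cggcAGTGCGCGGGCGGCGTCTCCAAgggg
Col3a1 held 1 TATAAA, 117 bases before the start, and neither other motif. Col1a2 held 2 GGGCGG and 1 CCAAT, and no TATAAA in this window. Of all 32851 windows of 250 bases in the table, 12.4% held TATAAA, 33.8% CCAAT and 32.7% GGGCGG on either strand. Of the 34 collagen windows, 4 held TATAAA, 12 held CCAAT and 22 held GGGCGG (64.7%). The third sequence, at chr8:11312801-11312830, spans the starts of Col4a2 (plus strand, base 11312805) and Col4a1 (minus strand, base 11312826). Capitals there mark the 22 bases from one start to the other, over which the annotated transcripts overlap.

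The total count per library lay between 31.3 and 35 megacounts in the controls, and between 24.5 and 31.1, 22.3 and 30.4, and 18.4 and 26.6 in the 2, 5 and 10% RPS groups, so the control libraries were the deepest. For 3 mice the treatment label gave a different diet from the description label used here. RS10_717 was 5% by description and 2% by treatment, RS10_725 was 10% and 5%, and RS10_748 was 2% and 10%. Pancreatic acinar transcripts summed to 4000 CPM (counts divided by the TMM-scaled library size in megacounts) in RS10_721 and 357 CPM in RS10_784, and to at most 10.5 CPM in the other libraries. Defining markers of colon epithelium (8 genes), smooth muscle (8 genes) and fibroblasts (7 genes) were present at every diet. Their sums at 0% RPS lay between 10740 and 15320, 7088 and 11550, and 655 and 990 CPM. The epithelial sum averaged 12930 ± 1770 CPM in the controls and 13120 ± 811, 14720 ± 2010 and 14720 ± 1540 CPM in the 2, 5 and 10% RPS groups. At 10% RPS 3 of the 8 epithelial genes (Krt20, Cdx2 and Vil1) were higher at an unadjusted p under 0.05. Of all genes 15.2% passed in either direction. Epcam, Cdh1, Krt8, Krt18 and Krt19 did not pass (unadjusted edgeR p from 0.0989 to 0.556). Krt20, a keratin of mature surface cells, rose in the trend over RPS percent (adjusted p = 0.0249 in edgeR and 0.000487 in DESeq2). In that trend edgeR called 2.1% and DESeq2 5.61% of all genes. The squamous epithelial list of 8 genes, which would mark anal skin, summed to between 2.41 and 10.8 CPM, with Krt6a at 0 in all 5 mice at 10% RPS. Whether reads were assigned by strand is not given in the sources used here. The genes of 2 collagen pairs overlapped on opposite strands, Col4a1 with Col4a2 by 311 exonic bases and Col4a3 with Col4a4 by 159, and Col18a1 and Col9a3 shared 896 and 535 exonic bases with Slc19a1 and Tcfl5, so that reads there could be counted for either gene.

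Collagen transcripts made up 0.293 ± 0.056% of the counts in the controls (SD, n = 5), and 0.305 ± 0.046%, 0.257 ± 0.0296% and 0.303 ± 0.0311% in the 2, 5 and 10% RPS groups. Levels of different genes were compared as CPM per kb of the canonical transcript, averaged over 20 mice. Col3a1, the chain of type III collagen, was highest at 115 ± 23.8 CPM per kb (SD, n = 20). Col1a2 at 62.9 ± 10.4 and Col6a1 at 60.7 ± 8.31 CPM per kb came next, and these neighbors differed by less than their SD. Col4a1 at 40.7 ± 5.01, Col1a1 at 36.9 ± 8.12, Col4a2 at 32.6 ± 3.75 and Col6a2 at 31.8 ± 4.47 CPM per kb completed a group of 7 genes above all others, within which each step was within the larger SD of the 2 genes apart from the steps below Col3a1 and Col6a1. Col16a1 followed at 16.5 ± 1.61 CPM per kb and was the highest FACIT gene. At the other end, Col22a1 was at 0.0517 ± 0.015 and Col6a6 at 0.037 ± 0.0221 CPM per kb. The order depended on the length used. With the union of all annotated exons as the length, Col1a2 moved from rank 2 to rank 6, and the ratio of Col1a1 to Col1a2 per kb moved from 0.582 to 1.24.

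**Figure D1:**
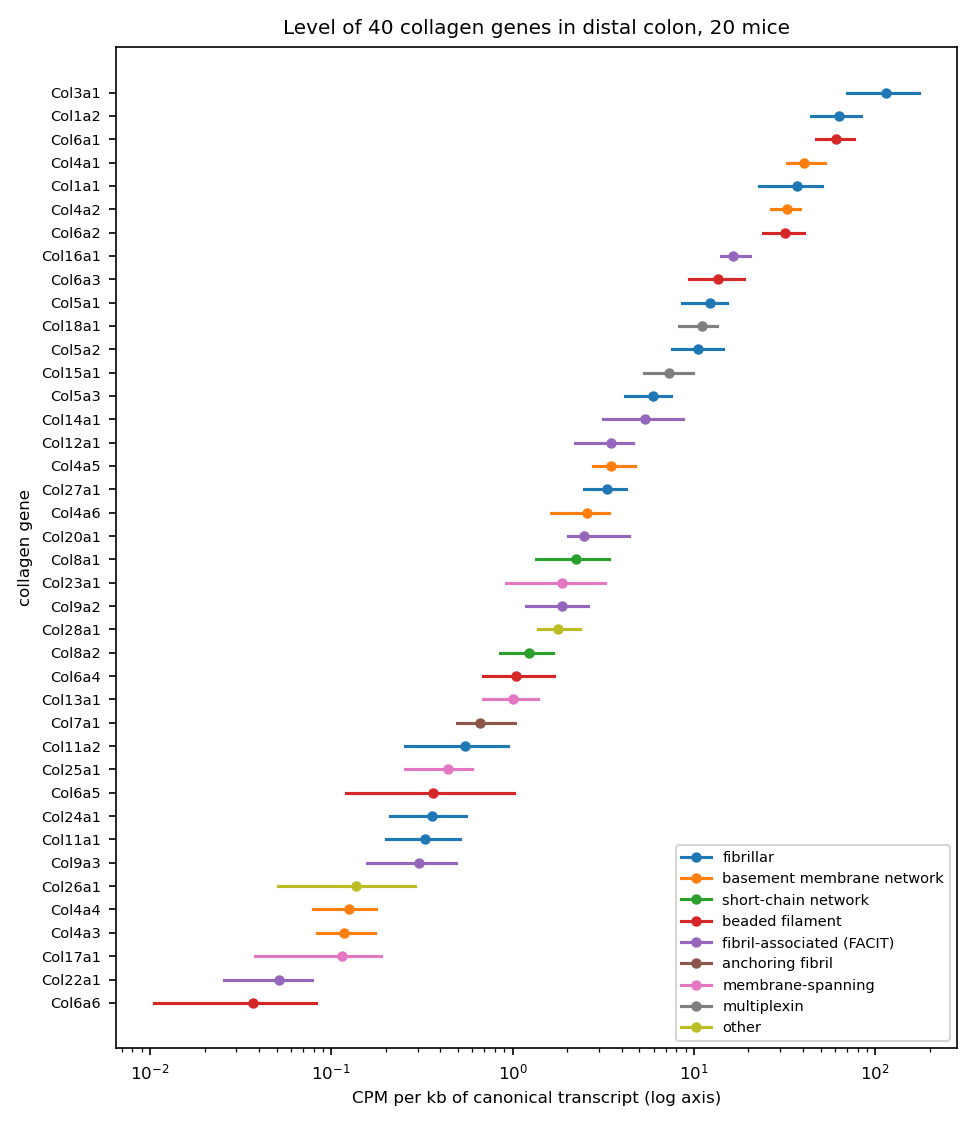
Level of each of 40 collagen genes in CPM per kb of canonical transcript on a log axis, with the point at the mean of 20 mice, the line from the lowest to the highest mouse, and colors for the collagen class. Col3a1 was highest at 115 CPM per kb and Col6a6 lowest at 0.037.

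How the classes compare across the 4 diets was examined from the summed CPM of each class. All 40 collagen genes summed to 2372, 2500, 2794, 3057 and 3792 CPM in the controls, 2271, 3085, 3111, 3225 and 3363 in the 2% RPS mice, 2154, 2478, 2628, 2763 and 2911 in the 5% RPS mice and 2612, 3092, 3100, 3198 and 3393 in the 10% RPS mice. The mean sum was 2903 ± 564 CPM in the controls (SD, n = 5) and 3011 ± 428, 2587 ± 290 and 3079 ± 288 CPM in the 2, 5 and 10% RPS groups, and the ranges overlapped at every level. Fibrillar genes held 49.7% of the collagen CPM at 0% RPS, beaded-filament genes 19.9%, basement membrane genes 18.1%, FACIT genes 7.15% and multiplexins 3.43%. The membrane-spanning, short-chain, other and anchoring-fibril genes each held under 1% (0.604, 0.619, 0.319 and 0.232%).

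FACIT genes summed to 185, 201, 206, 206 and 214 CPM in the controls, 166, 192, 203, 212 and 219 in the 2% RPS mice, 155, 161, 169, 180.2 and 189.7 in the 5% RPS mice and 162, 177, 179, 189 and 189.7 in the 10% RPS mice. The 5% and 10% RPS mice lay lower than most controls, although the lowest control, at 185 CPM, was below the highest mouse of each. The controls averaged 202 ± 10.6 CPM, the 5% RPS mice 171 ± 14.1 and the 10% RPS mice 179 ± 11.3, against a spread within diets of 14.7 CPM. Under 5 other settings, among them the treatment label, omission of the 3 mice with differing labels and omission of RS10_721 and RS10_784, the difference from the controls lay between -35.2 and -29.8 CPM at 5% RPS and between -28.7 and -21.9 CPM at 10% RPS. As a share of collagen CPM, FACIT genes held 7.15 ± 1.26% in the controls and 6.63 ± 0.449%, 6.64 ± 0.394% and 5.84 ± 0.386% in the 2, 5 and 10% RPS groups. The mean epithelial marker sums were higher at 5 and 10% RPS, where the FACIT sums were lower, and their part in the FACIT sums was not tested. The highest epithelial sums were in the libraries with pancreatic transcripts, 17940 CPM in RS10_721 and 17120 CPM in RS10_784. The other mice of these diets lay between 12840 and 15190 CPM, within the control range of 10740 to 15320 CPM. Short-chain network genes averaged 17.6 ± 1.86 CPM in the controls and 13.6 ± 2.28 CPM in the 5% RPS mice, with 15.6 CPM in the highest 5% RPS mouse and 15.8 CPM in the lowest control. These groups did not overlap by the description label. By the treatment label RS10_725, at 18.9 CPM, was a 5% RPS mouse, and the groups overlapped. At 10% RPS the other classes differed from 0% RPS by less than their spread within diets, apart from the membrane-spanning genes, at 13.3 ± 4.89 CPM compared with 17.1 ± 1.45 and a spread of 3.58.

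**Figure D2:**
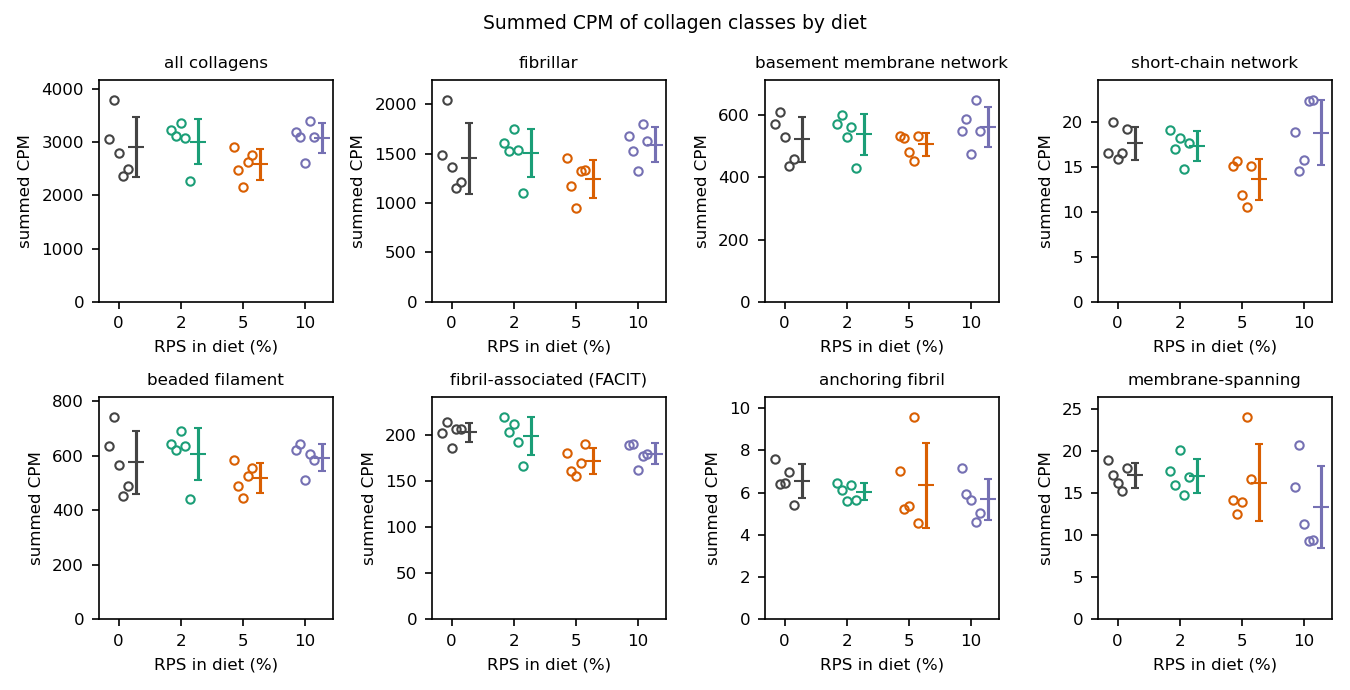
Summed CPM of all collagen genes and of 7 classes (vertical axes from 0) against percent RPS in the diet, with a circle per mouse and the bar at the mean ± SD of 5 mice. FACIT genes averaged 202 CPM in the controls and 171 and 179 CPM in the 5 and 10% RPS mice, whereas the sum of all collagen genes overlapped between diets.

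Whether single collagen genes differed between each RPS diet and the TWD alone was tested with the edgeR quasi-likelihood test, adjusted over all 17893 genes. A call needed an adjusted p no higher than 0.05 and a fold of 1.5 or more. At 10% RPS none of the 40 collagen genes met it, and 0.0391% of all genes did (7 genes). At an unadjusted p under 0.05, 2 of 40 collagen genes were found at 10% RPS, Col17a1 and Col24a1, both lower, against 15.2% of all genes in either direction and 7.87% lower. This count rested on single mice. It was 8 of 40 without RS10_703 (4 higher and 4 lower, against 19% of all genes), 7 without RS10_727 (all lower, against 19.4%) and 4 without RS10_748 (against 15.2%), and 1 without RS10_708, RS10_731 or RS10_784 (against 10.1, 13 and 11.7%). By the treatment label it was 4, all lower, against 10.6% of all genes. DESeq2 called 0 of the 38 collagen genes it gave an adjusted p, against 1.24% of all genes. The median log2 fold change of the 40 genes was 0.03 at 10% RPS, compared with -0.01 over all genes, with 21 above 0 and 19 below, and 46.8% of all genes lay above 0. The 21 included Col6a6, the highest at 1.02, which met the count filter through RPS-fed mice alone.

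At 5% RPS edgeR called none of the 40 collagen genes and 0% of all genes, and 4 collagen genes had an unadjusted p under 0.05 (Col14a1, Col8a2, Col12a1 and Col8a1), all lower, against 9.19% of all genes in either direction and 4.5% lower. Without RS10_719, and also by the treatment label, 1 collagen gene did, against 7.27 and 7.5% of all genes. Without RS10_707 the count was 6, all lower, against 7.1% of all genes in either direction. DESeq2 called 0 of 33 collagen genes and 0.195% of all genes. Of the 40 collagen genes 31 lay below 0, with a median log2 fold change of -0.11 against -0.01 for all genes, of which 48% were above 0. At 2% RPS edgeR called none of the 40 collagen genes and 0% of all genes, no collagen gene had an unadjusted p under 0.05 (1.41% of all genes did), and DESeq2 called 0 of 40 (0.00386% of all genes). Here 32 of 40 lay above 0, with a median log2 fold change of 0.07 against -0.000977 over all genes, of which 49.6% were above 0. At 2 and 5% RPS the highest value was again that of Col6a6 (0.60 and 0.57), which met the count filter through RPS-fed mice alone. The 3 comparisons share the same 5 control mice, so the signs at the different diets are not independent.

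**Figure D3:**
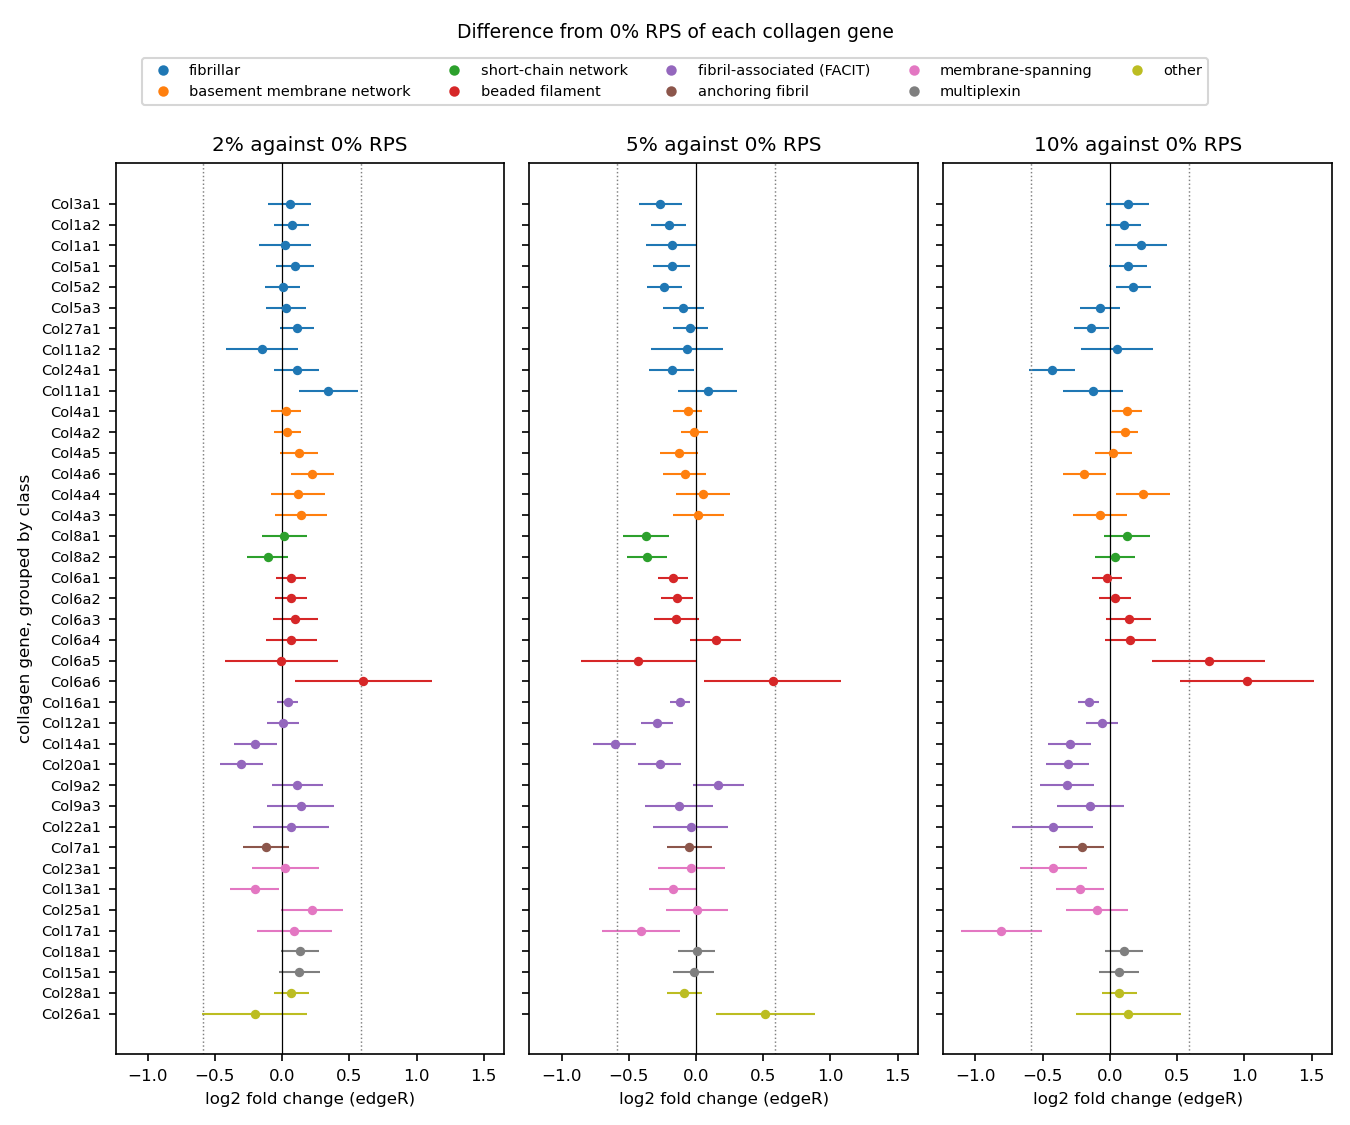
Log2 fold change of each of 40 collagen genes at 2, 5 and 10% RPS against 0% RPS from edgeR, with points for the estimate, lines for ± SE, colors for the class and dotted lines at a fold of 1.5. Most genes lay below 0 at 5% RPS (31 of 40) and above 0 at 2% RPS (32 of 40), and none was called at any level. Col6a6, above 0 in all panels, met the count filter through RPS-fed mice alone.

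Fibrillar genes were spread about 0 at 10% RPS, and Col24a1 had the lowest value of the class. Col3a1, which codes for the 3 identical chains of type III collagen (ENSMUSG00000026043, chr1:45350698-45395840), measured 513, 554, 571, 615 and 970 CPM in the controls, 498, 659, 684, 699 and 813 in the 2% RPS mice, 389.8, 513, 568, 586 and 627 in the 5% RPS mice and 607, 639, 727.1, 743 and 819.7 in the 10% RPS mice. The control mouse RS10_703 was the highest of all 20, and the groups overlapped. The log2 fold change was 0.13 ± 0.16 (SE) at 10% RPS and -0.26 ± 0.16 at 5% RPS (adjusted p = 0.747 and 0.638). Col1a1, the α1 chain of type I collagen (ENSMUSG00000001506, chr11:94827050-94843868), measured 159, 161, 211, 241 and 302 CPM in the controls, 141, 225, 227, 233 and 265 in the 2% RPS mice, 135, 169, 195, 216 and 234 in the 5% RPS mice and 207, 224, 263, 268 and 299 in the 10% RPS mice. The mice at 10% RPS spanned the upper part of the control range, and the log2 fold change was 0.23 ± 0.19 (adjusted p = 0.598). Col1a2, the α2 chain (ENSMUSG00000029661, chr6:4504814-4541555), measured 259, 295, 333, 353 and 450 CPM in the controls, 265, 361, 366, 377 and 405 in the 2% RPS mice, 238, 277, 301, 307 and 346 in the 5% RPS mice and 293, 364, 379.7, 384 and 393 in the 10% RPS mice. Its log2 fold change was 0.10 ± 0.13 (adjusted p = 0.771), with every group reaching into the control range.

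Col24a1, a fibrillar collagen gene best known from developing bone (ENSMUSG00000028197, chr3:144998233-145257766), measured 2.5, 2.58, 2.78, 3.04 and 3.04 CPM in the controls, 2.53, 2.58, 2.82, 3.15 and 3.94 in the 2% RPS mice, 2.19, 2.32, 2.41, 2.45 and 2.91 in the 5% RPS mice and 1.51, 1.77, 1.88, 2.36 and 2.88 in the 10% RPS mice. At 10% RPS 4 of 5 mice lay below every control, and RS10_727 was within the control range. By the treatment label 3 of 5 mice did. The log2 fold change was -0.43 ± 0.17 at 10% RPS (unadjusted p = 0.0193, adjusted p = 0.235). Col5a1 and Col5a2 code for type V collagen, which sets the width of type I fibrils. Col5a1 (ENSMUSG00000026837, chr2:27776397-27929526) measured 80, 83.1, 105, 114 and 129 CPM in the controls, 79.7, 109, 112, 121 and 124 in the 2% RPS mice, 72.2, 82.4, 95.7, 97.2 and 104 in the 5% RPS mice and 90.4, 111, 117, 119 and 125 in the 10% RPS mice. Col5a2 (ENSMUSG00000026042, chr1:45412554-45542442) measured 65.7, 66.9, 74.4, 82.6 and 109.6 CPM in the controls, 65.4, 78, 79.3, 81.8 and 96.3 in the 2% RPS mice, 57.5, 65.9, 70, 72.8 and 72.9 in the 5% RPS mice and 73.4, 84.3, 88.7, 95.2 and 109 in the 10% RPS mice. Both overlapped the controls at every diet. Their log2 fold changes were 0.14 ± 0.14 and 0.17 ± 0.13 at 10% RPS and -0.18 ± 0.14 and -0.24 ± 0.13 at 5% RPS. Col5a3, Col27a1, Col11a1 and Col11a2 gave log2 fold changes between -0.14 and 0.05 at 10% RPS. Col11a1 and Col11a2 are type XI chains, minor parts of fibrils best known from cartilage. Col11a1 (ENSMUSG00000027966, chr3:113824134-114014367) measured 1.55, 1.72, 2.77, 2.92 and 3.01 CPM in the controls, 2.25, 2.43, 3.08, 3.5 and 3.94 in the 2% RPS mice, 1.82, 2.25, 2.66, 2.81 and 3.21 in the 5% RPS mice and 1.71, 1.84, 2.06, 2.66 and 2.72 in the 10% RPS mice. Col11a2 (ENSMUSG00000024330, chr17:34258108-34285664) measured 2.32, 3.08, 4.05, 4.15 and 4.2 CPM in the controls, 1.62, 2.92, 3.58, 3.65 and 4.32 in the 2% RPS mice, 2.32, 2.68, 2.94, 3.04 and 6 in the 5% RPS mice and 2.8, 2.83, 3.63, 3.81 and 5.32 in the 10% RPS mice. The highest value of Col11a2 was in RS10_721 at 5% RPS, and its diets overlapped.

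Among basement membrane genes, the abundant chains overlapped the control range at every diet. Col4a1, the α1 chain of type IV collagen (ENSMUSG00000031502, chr8:11248423-11362826), measured 217, 231, 268, 286 and 321 CPM in the controls, 215, 279.5, 283, 283 and 289 in the 2% RPS mice, 238, 241, 256, 265 and 266 in the 5% RPS mice and 246, 275, 283, 289 and 352 in the 10% RPS mice. The control range, from 217 to 321 CPM, held all the mice at 5% RPS, and 1 mouse of 5 at 10% RPS exceeded it. Col4a2, its partner in nearly every basement membrane (ENSMUSG00000031503, chr8:11362471-11499287), measured 182, 189, 224, 239.5 and 241 CPM in the controls, 179, 201, 226, 243 and 256 in the 2% RPS mice, 179, 205, 221, 229 and 232 in the 5% RPS mice and 198, 228, 230.3, 242 and 261 in the 10% RPS mice. The log2 fold changes at 10% RPS were 0.13 ± 0.11 and 0.11 ± 0.1 (adjusted p = 0.605 and 0.667). Col4a5 and Col4a6 are chains of the basement membrane of smooth muscle. Col4a5 (ENSMUSG00000031274, chrX:140258354-140472231) measured 19.2, 21.4, 21.6, 24.9 and 26.9 CPM in the controls, 18.3, 22.2, 26.9, 27.4 and 29.8 in the 2% RPS mice, 18.5, 20, 20.7, 22.3 and 23 in the 5% RPS mice and 18.2, 20.3, 21.3, 25.3 and 31.1 in the 10% RPS mice. Col4a6 (ENSMUSG00000031273, chrX:139948399-140257072) measured 15.6, 15.7, 16.8, 17.9 and 19.7 CPM in the controls, 15, 19.7, 21, 21.9 and 22.7 in the 2% RPS mice, 14.3, 15.2, 16.1, 16.2 and 19.1 in the 5% RPS mice and 10.8, 11.4, 12.6, 18.4 and 21.9 in the 10% RPS mice. At 10% RPS 3 of 5 mice lay below every control for Col4a6 (log2 fold change -0.19 ± 0.16, adjusted p = 0.606) and 1 of 5 for Col4a5 (0.03 ± 0.14, adjusted p = 0.951). The ratio of Col4a5 to Col4a6 CPM was 1.33 ± 0.1 at 0% RPS, from 1.14 to 1.39, and 1.59 ± 0.23 at 10% RPS, from 1.37 to 1.97, which was not tested. Col4a3 and Col4a4, chains of specialised basement membranes such as that of the kidney glomerulus, were scarce. Col4a3 (ENSMUSG00000079465, chr1:82564642-82699780) measured 0.833, 0.963, 1.01, 1.02 and 1.15 CPM in the controls, 0.823, 0.922, 1.01, 1.25 and 1.49 in the 2% RPS mice, 0.71, 0.961, 0.982, 1.12 and 1.26 in the 5% RPS mice and 0.896, 0.925, 0.951, 0.971 and 0.981 in the 10% RPS mice. Col4a4 (ENSMUSG00000067158, chr1:82426144-82564800) measured 0.823, 1.21, 1.27, 1.3 and 1.37 CPM in the controls, 1.18, 1.26, 1.3, 1.37 and 1.4 in the 2% RPS mice, 0.925, 0.947, 1.37, 1.43 and 1.56 in the 5% RPS mice and 0.951, 1.28, 1.33, 1.74 and 1.83 in the 10% RPS mice. Both overlapped the controls at every diet.

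The abundant beaded-filament genes overlapped the control range at every diet. Col6a1, the α1 chain of type VI collagen (ENSMUSG00000001119, chr10:76543440-76562283), measured 199.7, 228, 248, 280.2 and 314 CPM in the controls, 202, 269.7, 281, 285 and 293 in the 2% RPS mice, 194, 211, 219.6, 247 and 255 in the 5% RPS mice and 224, 241, 248, 255 and 282 in the 10% RPS mice. Its log2 fold change was -0.02 ± 0.11 at 10% RPS and -0.17 ± 0.11 at 5% RPS, and mice of all diets overlapped. Col6a2 and Col6a3 code for the other chains of the common form. Col6a2 (ENSMUSG00000020241, chr10:76429660-76459549) measured 154, 163, 184, 213 and 241 CPM in the controls, 144, 200.3, 213, 219.6 and 222 in the 2% RPS mice, 144, 164, 177, 182 and 199 in the 5% RPS mice and 177, 196, 200.2, 203 and 204 in the 10% RPS mice. Col6a3 (ENSMUSG00000048126, chr1:90693645-90771780) measured 86.1, 90.6, 127, 132 and 172 CPM in the controls, 87.7, 128, 136, 142 and 158 in the 2% RPS mice, 94.4, 98.7, 117, 119 and 120.3 in the 5% RPS mice and 100.4, 136, 141, 142 and 149.6 in the 10% RPS mice. Their log2 fold changes at 10% RPS were 0.04 ± 0.12 and 0.14 ± 0.17, and the diets overlapped. Col6a6, a rarer chain that can take the place of the third chain (ENSMUSG00000043719, chr9:105564724-105705561), measured 0.113, 0.217, 0.238, 0.271 and 0.285 CPM in the controls, 0.0972, 0.215, 0.322, 0.497 and 0.59 in the 2% RPS mice, 0.102, 0.133, 0.179, 0.496 and 0.755 in the 5% RPS mice and 0.256, 0.353, 0.456, 0.505 and 0.762 in the 10% RPS mice. The controls held 4 to 9 counts each, so the gene met the count filter through RPS-fed mice alone. It stayed among the 40 genes tested and in the counts of genes above 0. Because of the filter no p is given for its difference from the controls. Col6a5 had a log2 fold change of 0.73 ± 0.42 (adjusted p = 0.421) and Col6a4 of 0.15 ± 0.19.

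All 7 FACIT genes had log2 fold changes below 0 at 10% RPS, and 6 of 7 at 5% RPS, while none passed the adjusted threshold. Of all genes, 46.8 and 48% lay above 0 at 10 and 5% RPS. Of the 40 collagen genes, 19 and 31 lay below 0, so the sign at 5% RPS was not particular to FACIT genes. Col16a1, a FACIT of smooth muscle and skin (ENSMUSG00000040690, chr4:129941154-129993076), measured 90.2, 90.7, 101, 101 and 105 CPM in the controls, 87, 93.8, 96.8, 107 and 117 in the 2% RPS mice, 82.8, 84.9, 89.3, 92.3 and 99.3 in the 5% RPS mice and 81, 82, 86.8, 92 and 95.2 in the 10% RPS mice. The 10% RPS mice sat in and below the lower part of the control range of 90.2 to 104.5 CPM, with 3 mice below it. The log2 fold change was -0.16 ± 0.078 at 10% RPS (adjusted p = 0.342). Col14a1, which binds fibrils through their proteoglycans (ENSMUSG00000022371, chr15:55171140-55384199), measured 34.8, 34.9, 37.4, 44.1 and 56.2 CPM in the controls, 28.7, 33.7, 34.1, 38.4 and 45.6 in the 2% RPS mice, 20.4, 23.3, 27.5, 32.1 and 33.2 in the 5% RPS mice and 24, 33.6, 37, 37.1 and 37.2 in the 10% RPS mice. All 5 mice at 5% RPS lay below all 5 controls, as 0.576% of all genes did, and at 10% RPS 2 of 5 mice did. By the treatment label 4 of 5 mice at 5% RPS did, with RS10_725 at 37 CPM inside the control range. The log2 fold change was -0.60 ± 0.16 at 5% RPS (unadjusted p = 0.00126, adjusted p = 0.325) and -0.30 ± 0.16 at 10% RPS.

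Col12a1 was at 43.8 ± 5.03 CPM in the controls and 35.9 ± 6.41 CPM in the 5% RPS mice, with a log2 fold change of -0.29 ± 0.12 (adjusted p = 0.485). Col20a1 measured 9.02, 11.2, 12.1, 12.5 and 19.7 CPM in the controls, 9.45, 9.76, 10.1, 11.5 and 11.5 in the 2% RPS mice, 9.11, 9.55, 9.91, 11.9 and 13 in the 5% RPS mice and 9.08, 9.73, 10.2, 11.1 and 11.9 in the 10% RPS mice. The control mouse RS10_707, at 19.7 CPM, stood above all the others. The log2 fold changes at 2, 5 and 10% RPS were -0.30, -0.27 and -0.31, each with an SE of 0.16, and without RS10_707 they were -0.10, -0.06 and -0.10, each with an SE of 0.13. Fibroblast markers summed to 809 ± 122 CPM in the controls and 639 ± 98.7 CPM in the 5% RPS mice, with 4 of 7 (Pdgfra, Dpt, Dcn and Lum) lower at an unadjusted p under 0.05, against 4.5% of all genes. At 10% RPS that sum was 768 ± 156 CPM, and the part of fibroblast content in the collagen values was not tested.

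Membrane-spanning, anchoring and network genes were scarcer. Col17a1, a hemidesmosome collagen of epithelial cells (ENSMUSG00000025064, chr19:47634783-47680533), measured 0.528, 0.57, 0.624, 0.982 and 1.06 CPM in the controls, 0.483, 0.775, 0.861, 0.93 and 0.94 in the 2% RPS mice, 0.323, 0.491, 0.563, 0.595 and 0.846 in the 5% RPS mice and 0.213, 0.392, 0.427, 0.544 and 0.57 in the 10% RPS mice. The lowest control, at 0.528 CPM, lay below 2 of the 5 mice at 10% RPS. The log2 fold change was -0.81 ± 0.3 at 10% RPS (unadjusted p = 0.0142, adjusted p = 0.21) and -0.41 ± 0.29 at 5% RPS. Of the squamous list, whose cells are where Col17a1 is best known, 4 of 8 genes were tested. Of these, Krt13 and Dsg3 had log2 fold changes of 1.62 ± 0.65 and 0.82 ± 0.28 at 10% RPS (adjusted p = 0.247 and 0.164), and Krt14 and Krt5 of -0.10 ± 0.39 and -0.59 ± 0.63 (adjusted p = 0.932 and 0.706). In the trend DESeq2 gave Dsg3 an adjusted p of 0.0128 and edgeR 0.0521. The list summed to 4.66 ± 1.83 CPM in the controls and 6.13 ± 2.91 CPM in the 10% RPS mice, and the part of squamous or other epithelial cells in the values of Col17a1 was not tested.

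Col23a1 (ENSMUSG00000063564, chr11:51180566-51474745), a collagen of epithelial and other cell surfaces, measured 10.1, 10.9, 11, 12.2 and 14.2 CPM in the controls, 9.19, 11.4, 11.6, 12.8 and 14.4 in the 2% RPS mice, 8.45, 8.76, 8.76, 12.2 and 18.8 in the 5% RPS mice and 5.37, 5.71, 7.51, 10.2 and 15 in the 10% RPS mice. RS10_721 at 5% RPS was the highest, and RS10_729, RS10_731 and RS10_784 lay below every control, with a log2 fold change of -0.42 ± 0.25 at 10% RPS (adjusted p = 0.441). Col7a1, the anchoring fibril collagen (ENSMUSG00000025650, chr9:108782647-108813943), measured 5.39, 6.39, 6.46, 6.99 and 7.57 CPM in the controls, 5.61, 5.64, 6.13, 6.37 and 6.43 in the 2% RPS mice, 4.55, 5.23, 5.34, 7.01 and 9.56 in the 5% RPS mice and 4.62, 5.02, 5.63, 5.93 and 7.15 in the 10% RPS mice. Its log2 fold change of -0.21 ± 0.17 left the groups overlapping. Col13a1 and Col25a1, 2 further membrane-spanning genes, had log2 fold changes at 10% RPS of -0.22 and -0.09.

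Col8a1, a short-chain collagen of vessel walls and smooth muscle (ENSMUSG00000068196, chr16:57444621-57575100), measured 9.27, 10.3, 11.8, 13.7 and 13.9 CPM in the controls, 9.91, 11.9, 12.1, 12.5 and 13.4 in the 2% RPS mice, 6.83, 7.85, 9.78, 10.4 and 10.7 in the 5% RPS mice and 8.81, 10.4, 12.6, 15.1 and 17.4 in the 10% RPS mice. The 2 lowest mice, both at 5% RPS, were RS10_719 and RS10_721. Col8a2 (ENSMUSG00000056174, chr4:126180559-126208123), its partner chain, measured 4.7, 5.45, 5.47, 6.11 and 7.23 CPM in the controls, 4.28, 4.79, 4.9, 6.31 and 6.64 in the 2% RPS mice, 3.7, 3.99, 4.66, 4.94 and 5.27 in the 5% RPS mice and 4.93, 5.42, 5.77, 6.35 and 7.3 in the 10% RPS mice. Here too RS10_719 and RS10_721 were the lowest, and the log2 fold changes of Col8a1 and Col8a2 at 5% RPS were -0.37 ± 0.17 and -0.36 ± 0.15 (adjusted p = 0.515 and 0.485). Col18a1, a multiplexin that yields the vessel-inhibiting fragment endostatin (ENSMUSG00000001435, chr10:76888012-77002390), measured 46.2, 48.2, 61.5, 66.2 and 75.3 CPM in the controls, 47, 62, 67.4, 74.2 and 75.4 in the 2% RPS mice, 50.6, 53, 61.6, 62.2 and 71 in the 5% RPS mice and 55.5, 60.3, 62.4, 68.5 and 72.8 in the 10% RPS mice. Col15a1 measured 40.4 ± 10.4 CPM in the controls and 42.4 ± 1.72 CPM in the 10% RPS mice, and the log2 fold changes of Col18a1 and Col15a1 at 10% RPS were 0.10 ± 0.14 and 0.07 ± 0.15. Col28a1, a collagen of nerve sheaths (ENSMUSG00000068794, chr6:7997102-8192617), measured 7.37, 8.42, 8.59, 9.44 and 9.72 CPM in the controls, 7.16, 8.26, 9.14, 10.1 and 11.1 in the 2% RPS mice, 7.76, 7.81, 7.9, 8.48 and 8.96 in the 5% RPS mice and 6.87, 8.39, 8.71, 10 and 11.7 in the 10% RPS mice. Its log2 fold change was 0.07 ± 0.13 at 10% RPS, and the diets overlapped.

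Dose dependence was tested as a linear trend over RPS percent. edgeR called none of the 40 collagen genes, where 2.1% of all genes were called (375 genes), and 3 collagen genes had an unadjusted p under 0.05, all with negative slopes, against 19.1% of all genes in either direction and 10.1% with negative slopes. Without RS10_727 the count was 7 (against 23.4% of all genes), without RS10_703 it was 6 (22%), without RS10_708 or RS10_715 it was 5 (15.4 and 20.7%), and by the treatment label it was 6 (13%). They were Col17a1, at -0.09 ± 0.028 (log2 per percent RPS, SE; unadjusted p = 0.00389, adjusted p = 0.0834), Col24a1 at -0.05 ± 0.016 (adjusted p = 0.0898) and Col16a1 at -0.02 ± 0.0073 (adjusted p = 0.152). DESeq2 called 1 of 40, Col24a1, with an adjusted p of 0.0425, against 5.61% of all genes. By the treatment label the adjusted p of these trends was 0.399 for Col17a1 and 0.248 for Col24a1, without the 3 mice with differing labels 0.127 and 0.134, and without RS10_721 and RS10_784 0.194 and 0.236. The log2 fold change of Col17a1 at 10% RPS was -0.55, -0.93 and -0.78 in these 3 settings, that of Col24a1 -0.40, -0.47 and -0.38, and that of Col14a1 at 5% RPS -0.55, -0.67 and -0.55. Without mouse RS10_727 edgeR called Col24a1 as well, with an adjusted p of 0.0255. Sox10 and S100b, markers of enteric glia and Schwann cells, also had negative slopes at an unadjusted p under 0.05, and their part and that of the epithelial markers in the values of Col24a1 and Col17a1 was not tested. For a difference between any of the 4 diets, edgeR called none of the 40 and 0.0727% of all genes, 5 collagen genes (Col14a1, Col24a1, Col17a1, Col5a2 and Col8a1) had an unadjusted p under 0.05 against 10.6% of all genes, and DESeq2 called none of the 40 and 2.01% of all genes.

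**Figure D4:**
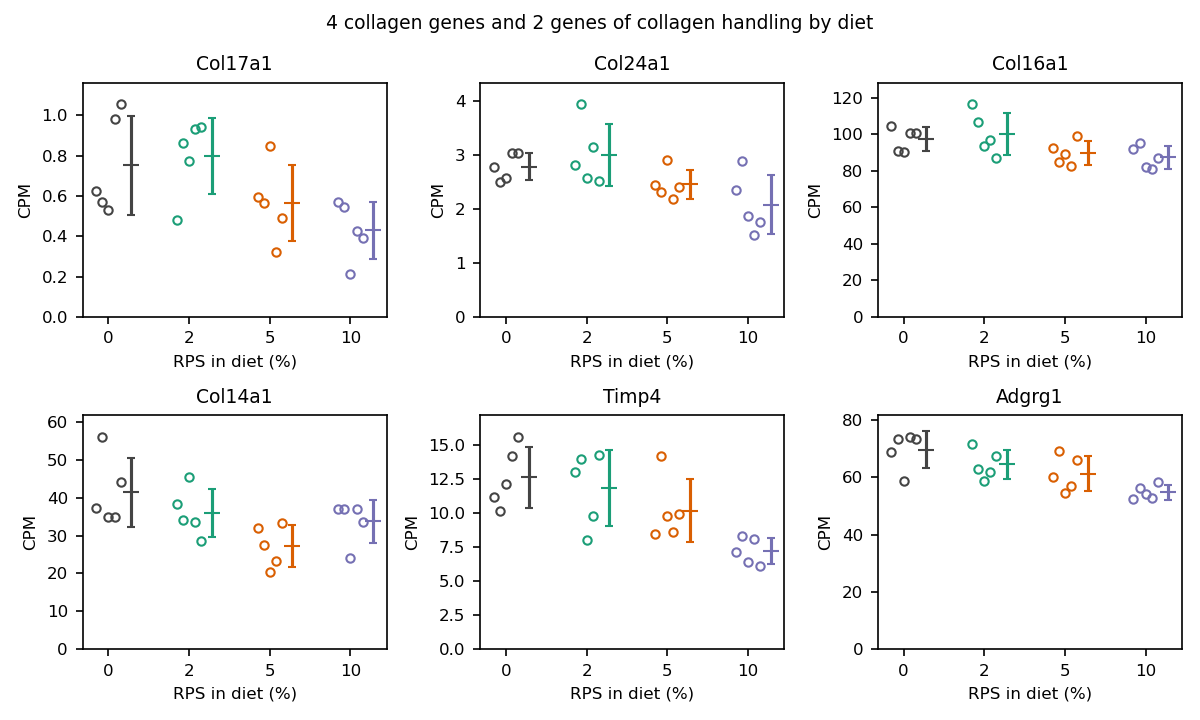
CPM of Col17a1, Col24a1, Col16a1 and Col14a1 and of Timp4 and Adgrg1 (vertical axes from 0) against percent RPS in the diet, with a circle per mouse and the bar at the mean ± SD of 5 mice. The 5 mice at 5% RPS lay below all controls for Col14a1, and the 5 mice at 10% RPS did for Timp4 and Adgrg1, with diets as in the description label.

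Chains that share a triple helix were compared across the 20 mice as log2 CPM. Of 9 pairs, 6 had a positive correlation at an adjusted permutation p of at most 0.000135. Col6a1 and Col6a2 had r = 0.945 and rho = 0.938, Col1a1 and Col1a2 r = 0.916 and rho = 0.871, Col5a1 and Col5a2 r = 0.883 and rho = 0.931, and Col4a1 and Col4a2 r = 0.876 and rho = 0.884 (permutation p = 1e-05 for r and rho, the smallest the 100000 permutations can give, adjusted p = 2.25e-05). Col6a1 and Col6a3 had r = 0.841 and rho = 0.803, and Col4a5 and Col4a6 r = 0.757 and rho = 0.803 (permutation p of r = 2e-05 and 9e-05, adjusted p = 3.6e-05 and 0.000135). For rho the permutation p was 5e-05 in both, with an adjusted p of 7.5e-05. Without the 2 mice farthest from the median of the first gene, the 6 values lay between 0.68 and 0.918. Among the residuals from the diet means, they lay between 0.825 and 0.946. Col8a1 and Col8a2 had r = 0.411 (permutation p = 0.0703, adjusted p = 0.0903) and rho = 0.325 (permutation p = 0.161, adjusted p = 0.207). On residuals from the diet means the r of this pair was 0.124 (permutation p = 0.601). Col4a3 and Col4a4 had r = 0.0774 (permutation p = 0.747, adjusted p = 0.783) and rho = -0.0526 (permutation p = 0.828, adjusted p = 0.828). Col11a1 and Col11a2 had r = -0.0655 (permutation p = 0.783, adjusted p = 0.783) and rho = -0.126 (permutation p = 0.594, adjusted p = 0.668). No relation was detectable for the last 2 pairs. The counts of these genes were low, and the part of low counts in this was not tested.

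High correlations were also found between chains of different collagens. Over the 780 pairs of the 40 genes the median r was 0.21, and over the 153 pairs of genes that averaged 20 CPM or more it was 0.706, as a description of mice that share a scaling. The gene closest to Col1a1 was Col5a1 at r = 0.948, with Col1a2 second at 0.916. Col1a2 was also closest to Col5a1, at 0.953, and Col1a1 came at rank 7 for Col1a2. Col4a1 and Col4a2 were each other's closest gene. The gene closest to Col6a1 was Col6a2, whereas that closest to Col6a2 was Col1a2 at 0.95, with Col6a1 at rank 3.

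**Figure D5:**
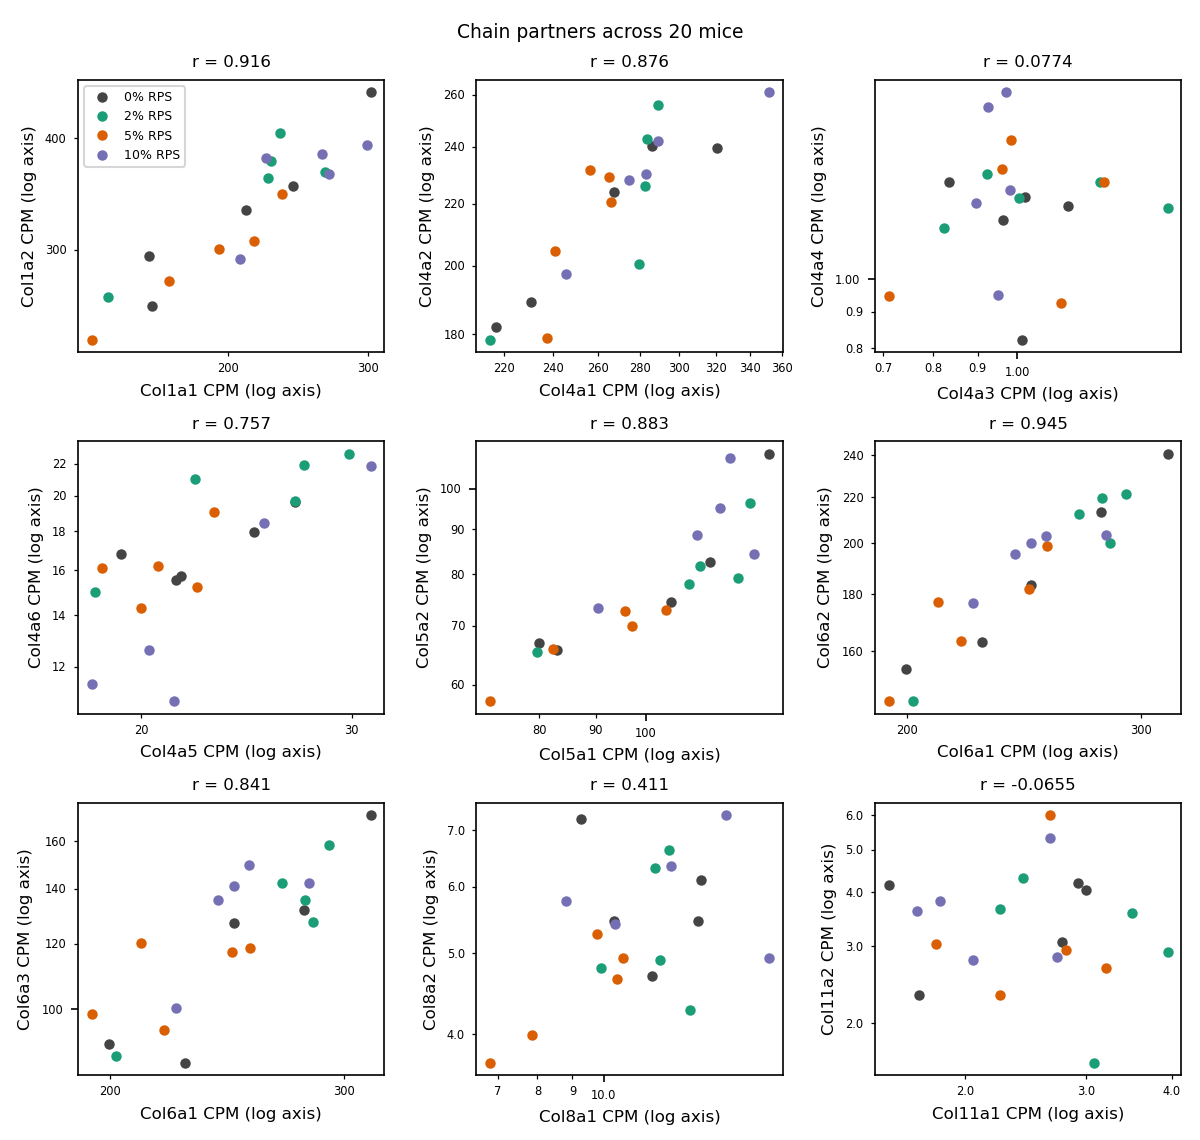
CPM of one chain against its partner on log axes in 9 panels, with a point per mouse, a color per diet and Pearson's r of log2 CPM over 20 mice above each panel. Points of type I, IV, V and VI chains lie along a line (r from 0.757 to 0.945), while those of Col4a3 and Col4a4 and of Col11a1 and Col11a2 scatter (r = 0.0774 and -0.0655).

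Genes that fold, process, degrade or bind collagens were taken from 7 lists of 84 genes, of which 82 were tested. edgeR called 0 of the 82 at each RPS level against 0.0391, 0 and 0% of all genes, and 7, 14 and 0 had an unadjusted p under 0.05 at 10, 5 and 2% RPS, which was 8.54, 17.1 and 0% of them against 15.2, 9.19 and 1.41% of all genes. In the linear trend edgeR called 2 of 82, both falling, which was 2.44% against 2.1% of all genes, and 3 were higher and 9 lower at an unadjusted p under 0.05, together 14.6% against 19.1%. The share of the list called was thus near that of all genes. Timp4, an inhibitor of matrix metalloproteinases (ENSMUSG00000030317, chr6:115187773-115229336), measured 10.1, 11.2, 12.1, 14.2 and 15.6 CPM in the controls, 8, 9.8, 13, 14 and 14.3 in the 2% RPS mice, 8.49, 8.59, 9.78, 9.91 and 14.2 in the 5% RPS mice and 6.12, 6.44, 7.11, 8.08 and 8.33 in the 10% RPS mice. The 5 mice at 10% RPS lay below every control, as 1.15% of all genes did, and by the treatment label 4 of 5 did. Its trend was -0.08 ± 0.016 (log2 per percent RPS, SE; adjusted p = 0.0147), with -0.81 ± 0.17 at 10% RPS (adjusted p = 0.0659). Adgrg1, a receptor that binds type III collagen (ENSMUSG00000031785, chr8:95701315-95742028), measured 58.6, 69, 73.3, 73.4 and 74.3 CPM in the controls, 58.6, 62, 62.8, 67.5 and 71.7 in the 2% RPS mice, 54.4, 57.1, 60.2, 65.9 and 69.1 in the 5% RPS mice and 52.3, 52.7, 54.3, 56.2 and 58.5 in the 10% RPS mice. The highest 10% RPS mouse, at 58.5 CPM, lay just below the lowest control, at 58.6, and by the treatment label 4 of 5 mice lay below every control. Its trend was -0.03 ± 0.0071 (adjusted p = 0.0201), and the log2 fold change at 10% RPS was -0.35 ± 0.078 (adjusted p = 0.071). By the treatment label both trends lost the call, with an adjusted p of 0.3 for Timp4 and 0.242 for Adgrg1, and without the 3 mice with differing labels the adjusted p was 0.0588 and 0.0833. Without RS10_784 it was 0.0594 for Timp4 and 0.0542 for Adgrg1, and without both libraries with pancreatic transcripts 0.0552 for Timp4 and 0.0481 for Adgrg1. In DESeq2 the adjusted p at 10% RPS was 0.00231 for Timp4, 0.00838 for Adgrg1 and 0.0303 for Mmp3, a protease that activates collagenases. With a fold of 1.5 or more also needed, DESeq2 called 1.24% of all genes there. Adgrg1, at a log2 fold change of -0.34, missed that fold. In edgeR the adjusted p of Mmp3 was 0.125 at 10% RPS, 0.378 there by the treatment label, and 0.0536 in the trend. In the DESeq2 trend, which called 5.61% of all genes, its adjusted p was 0.00902. Mmp3 averaged 1.44 ± 0.603 CPM in the controls, with a highest control of 2.31, and 3.51 ± 2.25 CPM in the 10% RPS mice. The 10% RPS mice measured 2.07, 2.18, 2.43, 3.45 and, in RS10_731, 7.4 CPM.

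Among enzymes that fold and modify collagen, the gene with the smallest p at 10% RPS was P3h4 (log2 fold change -0.20 ± 0.09, adjusted p = 0.299), and among those that cut propeptides or cross-link fibrils it was Loxl4 (0.39 ± 0.19, adjusted p = 0.339). Of the proteoglycans on fibrils it was Prelp (-0.21 ± 0.1, adjusted p = 0.337), of the basement membrane partners Lama5 (0.17 ± 0.11, adjusted p = 0.471), and of the TGF-beta signals Ccn2 (-0.34 ± 0.2, adjusted p = 0.451). At 5% RPS 13 of the 82 genes (15.9%) had an unadjusted p under 0.05 in the lower direction, against 4.5% of all genes. They included Pcolce, which speeds removal of the propeptide (log2 fold change -0.30 ± 0.1), Loxl3, a cross-linking enzyme (-0.36 ± 0.13), and the proteoglycans Dcn, Lum and Ogn (-0.41 ± 0.16, -0.40 ± 0.19 and -0.40 ± 0.13), and none passed adjustment. Dcn and Lum are also on the fibroblast list given above.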

How the data were processed

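The authors trimmed reads, mapped them to GRCm39 in CLC Genomics Workbench 20.01 (named in the submitters' processing notes) and deposited raw counts per gene for each mouse, 50-base single-end reads with no pooling. Strand assignment, the annotation release and multi-mapping are not given in the sources used here. Gene symbols came from GENCODE vM39, which matched 26338 of 26619 identifiers.

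Counts were analysed in R 4.3.3 with edgeR 4.0.16 (filterByExpr with a minimum count of 10, TMM scaling, robust quasi-likelihood fit over the 4 diets) and Benjamini-Hochberg adjustment over 17893 genes. DESeq2 1.42.0 was an alternative. CPM used TMM-scaled library sizes, and correlations used log2 CPM with a prior count of 2 and 100000 permutations, two-sided, adjusted over 9 pairs. Groups followed the description label, and the treatment label was an alternative. The smallest chi-square per degree of freedom between mice of a diet was 9.74, so no pair agreed within sampling noise.

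Genes described with every mouse were the highest gene of each class, the 3 smallest p-values at 10% RPS and in the trend, and both chains of each pair, and in each pathway list the called genes or else the smallest p. Col14a1, Col12a1, Mmp3 and other genes outside that rule were chosen after their values were seen. The members and lists were chosen with earlier results of these data known. Counts were simulated with 200 changed genes among 17893, 10% against 0% RPS. By adjusted p alone, edgeR recovered 41 to 51.5% of genes changed 1.5-fold and 76 to 76.5% changed 2-fold. Recovery under the full call, which also needs a fold of 1.5 and is stricter, was not measured. Results for some genes of the marker and pathway lists are not reported here.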

Additional observations from a re-analysis of the deposited data

Results flagged for a closer look

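Each group of 5 was screened with Dixon's criterion for a mouse far above or below the rest, with a critical value of 0.71. Of 172 tests 13 passed, where chance would give about 8.6. RS10_748 at 2% RPS was the lowest mouse for Col4a1 (215 CPM, next 279), Col6a1 (202, next 270), Col6a2 (144, next 200), the beaded-filament sum (441, next 622) and the sum of all collagen genes (2270, next 3080). This mouse is labelled 10% RPS by treatment. RS10_703 at 0% RPS was the highest for Col3a1 (970 CPM, next 615) and the lowest for Col4a4 (0.823, next 1.21). RS10_729 at 10% RPS was the lowest for Col1a2 (293 CPM, next 364) and Col6a3 (100 CPM, next 135). RS10_721 at 5% RPS, which holds pancreatic transcripts, was the highest for Col11a2 (6 CPM, next 3.04) and Lama5 (83.8 CPM, next 63.3) and the lowest for Prelp (105 CPM, next 136). RS10_718 at 5% RPS was the highest for Timp4 (14.2 CPM, next 9.91).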

How the results depend on the processing

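No collagen gene was called in the comparisons of 10, 5 and 2% with 0% RPS or in the test of any diet difference under the alternatives run, which were DESeq2, RLE scaling, no filter on low counts, no fold threshold, only the diets compared (both for pairwise comparisons), the treatment label, omission of the 3 mice with differing labels, thinned libraries, each mouse left out, and omission of RS10_721 and RS10_784, an alternative chosen after seeing the data. In the linear trend DESeq2 called 1 collagen gene (Col24a1), and leaving out each mouse gave 0 to 1. Over the mice left out, the number of collagen genes at an unadjusted p under 0.05 ranged from 1 to 8 at 10% RPS and 1 to 6 at 5% RPS. It ranged from 0 to 2 at 2% RPS, 3 to 7 in the trend and 2 to 10 for any diet difference. The highest counts stood against 19, 7.1, 2.53, 23.4 and 12.6% of all genes, in that order. Across mice left out, r lay between -0.172 and 0.0556 for Col11a1-Col11a2, -0.103 and 0.151 for Col4a3-Col4a4 and 0.229 and 0.539 for Col8a1-Col8a2, which passed the threshold without RS10_701, RS10_748 or RS10_731. On residuals from the diet means, r of Col11a1-Col11a2 was 0.0354 and that of Col8a1-Col8a2 was 0.124 (permutation p = 0.601). The class sums moved by less than their spread. The log2 fold changes of Col20a1 rested on RS10_707. The cause of these changes was not tested. No paired analysis was possible because mouse numbers belong to one animal each. The depth limits genes under 1 CPM such as Col6a6, and the 10% RPS libraries were the shallowest.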
